A study of Saccharomyces cerevisiae with 8 samples.

Results

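The genes of this report are the transcripts that only 1 of the yeast mating types makes in quantity. They are 7 a-specific genes (*STE2*, *STE6*, *BAR1*, *AGA2*, *ASG7*, *MFA1* and *MFA2*) and 3 alpha-specific genes (*STE3*, *MF(ALPHA)1* and *SAG1*). They were chosen by name, by a rule that uses no measured value, though with earlier results of these data known, and make up 10 of the 5444 genes tested. Each of the 10 was measured by 1 probe set, and none was lost to a filter. The arrays came from the haploid strain CEN.PK113-11C, whose genotype in the methods carries *his3* and *ura3* mutations and the mating type MATα. The control strain carried the empty p413 TEF vector, and the L-UBB+1 strain carried the same vector with human UBB+1, a frameshifted ubiquitin, expressed at a low level from the constitutive TEF promoter. Shake flask cultures of both strains were sampled in exponential phase (EX) and in stationary phase (D6, day 6 after the medium ran out of its carbon source), with 2 biological replicates per strain and phase and 8 arrays in all. Values are log2 expression levels from Affymetrix Yeast Genome 2.0 arrays. In RNA from whole cultures, a smaller share of cells that make a transcript and less of it per cell cannot be told apart.

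A haploid yeast cell finds a partner of the opposite mating type by secreting a peptide pheromone and by sensing the other type's pheromone with a receptor. An a cell makes a-factor, from *MFA1* and *MFA2*, exports it through the transporter Ste6, and senses α-factor with the receptor Ste2. An alpha cell makes α-factor, mostly from *MF(ALPHA)1*, and senses a-factor with the receptor Ste3. The MAT locus sets which genes are on: the MATα1 protein activates the alpha-specific genes together with Mcm1, and the MATα2 protein represses the a-specific genes. Both receptors signal through a shared G protein and MAP kinase cascade to the transcription factor Ste12. Stored copies of the mating-type genes at HML and HMR are kept silent by the Sir proteins.

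The mating type was checked first, by the place of each gene's level among the 5444 genes of the same array. How bright a probe set is also depends on its probes, so these percentiles show whether a signal was near the bottom of an array and do not rank the transcripts. On the 4 control arrays, *STE2* lay between the 86.5th and 94.1st percentile, *MFA2* between the 90.4th and 92.3rd, and *STE6* between the 72.3rd and 83.5th. *MFA1* stayed between the 65.8th and 82.4th percentile over all 8 arrays. The a-factor genes and the a-specific receptor and transporter were thus well above the bottom of the control arrays. *BAR1* lay between the 42.1st and 67th percentile there, *AGA2* between the 49.1st and 57.1st, and the dimmer *ASG7* between the 7.8th and 19.8th. On the L-UBB+1 arrays the percentiles were 26.4 to 33.8 for *STE2*, 16.5 to 19.8 for *STE6* and 39.4 to 53.2 for *MFA2*. They were 13.6 to 22.5 for *AGA2*, 6 to 6.4 for *BAR1* and 8 to 10.2 for *ASG7*. The α-factor gene *MF(ALPHA)1* lay between the 3.7th and 6.8th percentile on all 8 arrays, and its minor counterpart *MF(ALPHA)2* between the 4th and 9th. The probe set named for *HMLALPHA1*, whose sequence is shared by MATα1, stayed between the 3.3rd and 4.4th percentile. The probe set named for *HMRA1*, shared by MATa1, lay between the 55.1st and 88.2nd. *STE3* did not pass the 24.6th percentile. *SAG1* lay between the 14th and 19.1st percentile on the control arrays and between the 42.6th and 47.7th on the L-UBB+1 arrays. On the control arrays, the levels other than that of *ASG7* go against the mating type MATα of the stated genotype. On the L-UBB+1 arrays, *STE2*, *STE6*, *AGA2*, *BAR1* and *ASG7* lay below the alpha-specific *SAG1*, *MFA2* overlapped it and *MFA1* lay above it. Since brightness depends on the probes, the mating type of these arrays cannot be read from this order between genes. *MF(ALPHA)1* and *HMLALPHA1* stayed near the bottom on these arrays too. The mating type is left out of the group names below.

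**Figure D1:**
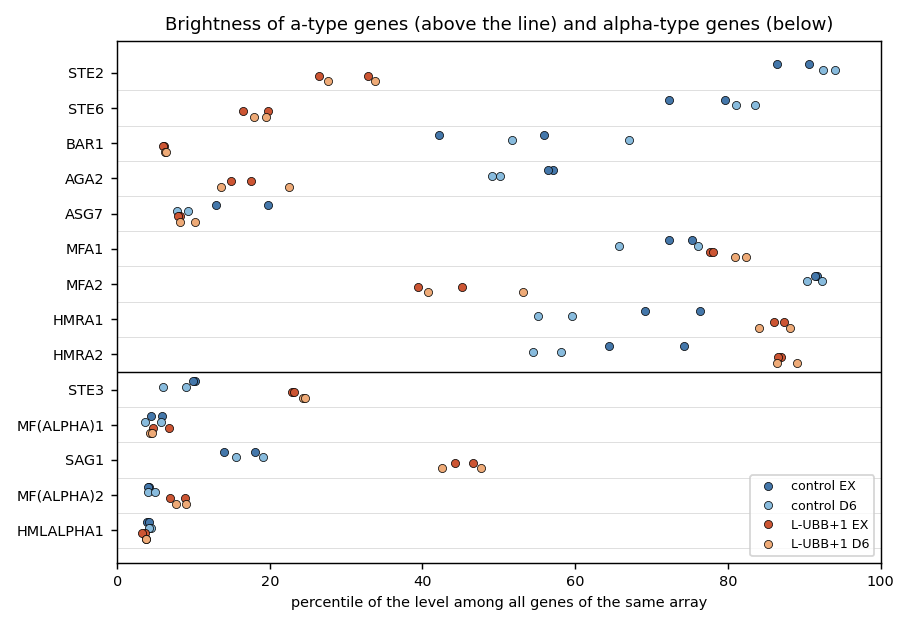
Percentile of each gene's level among the 5444 genes of the same array (horizontal axis, percent), for a-type genes above the line and alpha-type genes below it, with 1 point per array coloured by group. The probe set of *HMRA2*, drawn above the line, is marked as matching several transcripts, and which of them it read was not tested. *MF(ALPHA)1* and *HMLALPHA1* stay under the 7th percentile on every array, while *STE2*, *STE6*, *BAR1*, *AGA2* and *MFA2* shift from higher percentiles in the control arrays to lower ones in the L-UBB+1 arrays.

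On most of the growth phase markers below, the arrays labelled control D6 and L-UBB+1 EX went against their phase labels. Those labelled control EX and L-UBB+1 D6 did not. *SPG4*, a stationary phase marker, had levels of 6.57 and 6.46 on the arrays labelled control D6 and of 12.25 and 12.44 on those labelled L-UBB+1 EX. Its levels were 7.44 and 6.82 on the control EX arrays and 12.43 and 12.31 on the L-UBB+1 D6 arrays. The hexose transporter gene *HXT1* stood at 9.45 and 9.96 on the control D6 arrays and at 7.17 and 7.08 on the L-UBB+1 EX arrays. Of 12 markers of stationary phase or respiration, 10 were called higher in L-UBB+1 at EX (17.2% of all genes) and 10 at D6 (17.9%). The other 2, *HSP12* and *HSP26*, were called at neither phase. Neither was low on the control EX arrays, where *HSP12* stood at 11.97 and 12.09 and *HSP26* at 9.70 and 10.20. Of 10 markers of growth on glucose, 9 were called lower at each phase (17.1% and 18.5% of all genes). Within a strain, none of the 22 markers was called between D6 and EX, nor was any other gene (0.00% of all genes). From EX to D6, the 12 had median log2 differences of -0.23 in the control strain and 0.02 in L-UBB+1. Those of the 10 were 0.1 and -0.08. *HXT1* was higher at D6 in the control strain (log2 difference 1.21, adjusted p = 0.0389, limma). Growth state and strain therefore cannot be told apart on these arrays, and each strain difference below is one between the arrays so labelled. Whether the labels control D6 and L-UBB+1 EX were exchanged, which would turn strain and phase differences into each other, was not tested. The arrays L-UBB+1 EX 1 and D6 2 differed by an SD over genes of 0.086, and L-UBB+1 EX 2 and D6 1 by 0.143, against 0.202 to 0.287 for replicates of 1 group. On the 10 genes, these pairs differed by at most 0.18 and 0.33. The calls that end when these arrays are left out are given beside each gene. Below and for these markers, "called" means that limma, fitted to all 5444 genes with Benjamini-Hochberg adjustment, gave an adjusted p under 0.001 together with a log2 difference of 1 or more in size.

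In the strain comparison at EX, 5 of the 7 a-specific genes were called lower in L-UBB+1, where 17.1% of all genes were called lower. At D6 the same 5 genes were called lower, against 18.5% of all genes. Their median log2 difference was -1.95 at EX and -2.14 at D6, and that of all genes 0.00 and -0.01. Of the 3 alpha-specific genes, 1 was called higher at EX (17.2% of all genes) and 0 at D6 (17.9%), although 2 of them had an unadjusted p under 0.05 there (77.7% of all genes). Their median was 0.61 at EX and 0.98 at D6. Over all 8 arrays, 5 of the 10 genes had every L-UBB+1 array below every control array (38.1% of all genes), 3 had every L-UBB+1 array above (38.3%), and 2 overlapped. Since most of all genes were apart in this way, a lack of overlap is not particular to these genes.

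**Figure D2:**
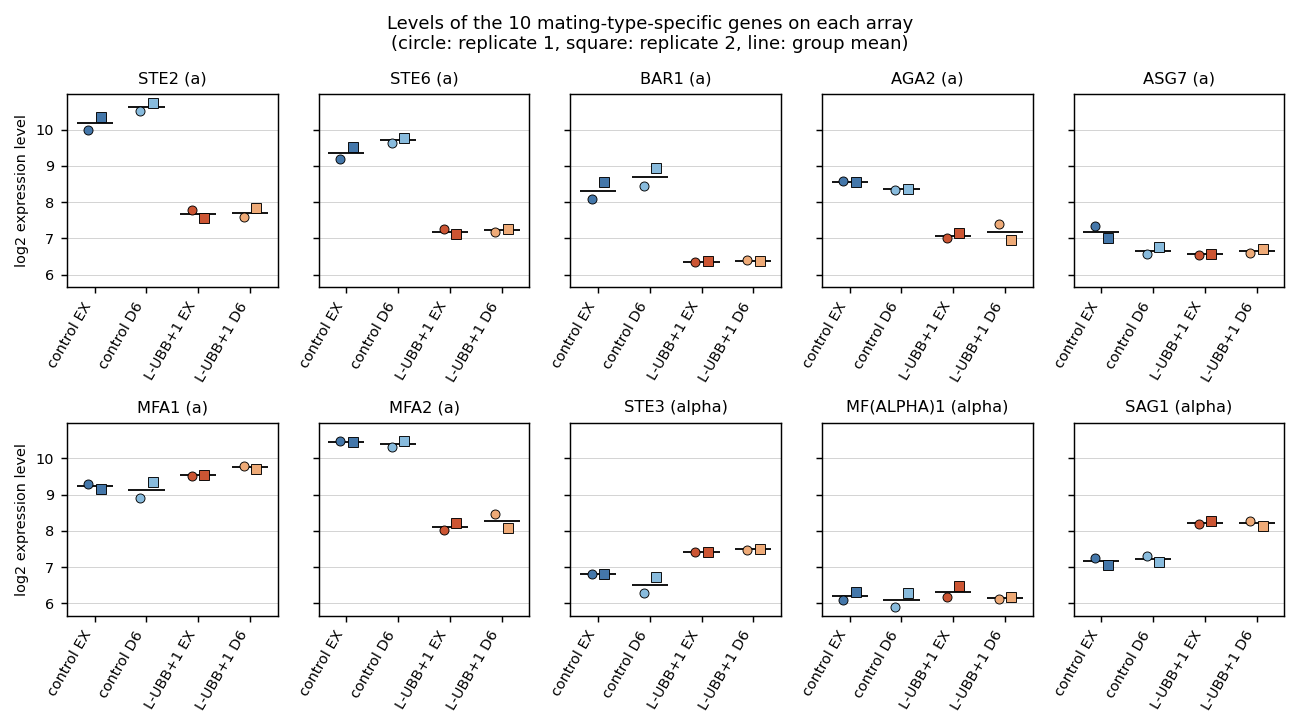
Log2 expression level (vertical axis) of each gene on each array, by group of strain and phase, with replicate 1 as a circle, replicate 2 as a square and the group mean as a line. *STE2*, *STE6*, *BAR1*, *AGA2* and *MFA2* are lower on all 4 L-UBB+1 arrays, *STE3*, *SAG1* and *MFA1* are higher, and *ASG7* and *MF(ALPHA)1* overlap between the strains.

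*STE2* (probe set 1773157_at), the receptor for α-factor, showed the largest fall of the 10 genes at both phases. Its levels were 9.99 and 10.35 in control EX, 10.52 and 10.74 in control D6, 7.79 and 7.55 in L-UBB+1 EX, and 7.59 and 7.83 in L-UBB+1 D6. All control arrays lay above all L-UBB+1 arrays, and the control D6 arrays also lay above the control EX arrays, while the L-UBB+1 phases overlapped. *STE2* was 5.66-fold lower in L-UBB+1 at EX (log2 difference -2.50, standard error 0.17, adjusted p = 9.43e-06, n = 2 arrays per group). At D6 it was 7.55-fold lower (log2 difference -2.92, standard error 0.17, adjusted p = 4.93e-06). Over 23 alternative settings each, the log2 difference ran from -2.68 to -2.32 at EX and from -3.04 to -2.79 at D6. *STE2* was called in every one by that setting's own threshold. Some of these thresholds were looser, such as a p under 0.05 without a minimum fold for the methods' t-test.

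*STE6* (1773254_at), the ABC transporter that exports a-factor, followed the same order of groups. Its levels were 9.18 and 9.53 in control EX, 9.63 and 9.78 in control D6, 7.25 and 7.11 in L-UBB+1 EX, and 7.19 and 7.26 in L-UBB+1 D6. The strains did not overlap, nor did the control phases, and the L-UBB+1 phases did. *STE6* was 4.5-fold lower at EX and 5.58-fold lower at D6 (log2 differences -2.17 and -2.48, standard error 0.14 for both, adjusted p = 7.3e-06 and 4.22e-06, limma). It was called under all 23 alternatives at each phase, by each setting's own threshold.

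The a-factor genes *MFA2* and *MFA1*, which encode near-identical precursors of the same pheromone, gave opposite signs. How far the probe set of each also reads the other was not tested. *MFA2* (1776117_at) had levels of 10.48 and 10.45 in control EX, 10.33 and 10.49 in control D6, 8.03 and 8.21 in L-UBB+1 EX, and 8.47 and 8.07 in L-UBB+1 D6. *MFA1* (1776218_at) had levels of 9.29 and 9.16 in control EX, 8.90 and 9.34 in control D6, 9.53 and 9.55 in L-UBB+1 EX, and 9.80 and 9.71 in L-UBB+1 D6. For *MFA2* the L-UBB+1 arrays lay far below the control arrays, and for *MFA1* they lay a little above all of them. *MFA2* was 5.07-fold lower at EX and 4.39-fold lower at D6 (log2 differences -2.34 and -2.14, standard error 0.15 for both, adjusted p = 7.89e-06 and 1.1e-05, limma). It was called under all 23 alternatives at each phase, by each setting's own threshold. *MFA1* was not called, with log2 differences of 0.31 at EX (95% interval -0.04 to 0.66, adjusted p = 0.0918, limma) and 0.63 at D6 (0.29 to 0.98, adjusted p = 0.00543). The log2 level of *MFA2* minus that of *MFA1* lay between 1.15 and 1.43 on the control arrays and between -1.63 and -1.33 on the L-UBB+1 arrays. The size of this offset within an array depends on the probes, so only its shift between arrays can be read, and the shift was not tested.

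*BAR1* (1778408_at) encodes the secreted protease with which a cells degrade α-factor. Its levels were 8.08 and 8.55 in control EX, 8.43 and 8.93 in control D6, 6.34 and 6.39 in L-UBB+1 EX, and 6.40 and 6.37 in L-UBB+1 D6. The L-UBB+1 arrays were close together and at or under the 6.4th percentile of their arrays, near the bottom, and the control phases overlapped. Folds against levels this low may understate the change. *BAR1* was 3.87-fold lower at EX and 4.92-fold lower at D6 (log2 differences -1.95 and -2.30, standard error 0.20 for both; adjusted p = 6.92e-05 and 2.95e-05, limma). When L-UBB+1 arrays EX 2 and D6 1 were both left out, the adjusted p was 0.00197 at EX and 0.00112 at D6, and when EX 1 and D6 2 were it was 0.00222 and 0.00114, so that *BAR1* was then not called, with log2 differences from -2.31 to -1.93. *BAR1* was among the dimmest 20% of genes by its mean over all arrays.

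*AGA2* (1776992_at), the adhesion subunit of a-agglutinin that binds the partner's surface protein, changed less. Its levels were 8.57 and 8.56 in control EX, 8.34 and 8.37 in control D6, 7.0 and 7.16 in L-UBB+1 EX, and 7.40 and 6.95 in L-UBB+1 D6. The strains did not overlap, the control EX arrays lay above the control D6 arrays, and the L-UBB+1 phases overlapped. *AGA2* was 2.80-fold lower at EX and 2.26-fold lower at D6 (log2 differences -1.49 and -1.18, standard error 0.15 for both; adjusted p = 7.02e-05 and 0.000229, limma). The call at EX was lost without control EX replicate 1 (adjusted p = 0.00112) or 2 (0.00109). The call at D6 was lost without control D6 replicate 1 (log2 difference -1.19) or 2 (-1.17). It was also lost in a limma fit of the 4 D6 arrays alone (adjusted p = 0.00136) and with the methods' t-test after Benjamini-Hochberg adjustment (0.0649). Without L-UBB+1 D6 replicate 2 it was lost too, at a log2 difference of -0.95. The same difference was found, and the call lost, when L-UBB+1 arrays EX 1 and D6 2 were both left out. The gene for the anchoring subunit of the same agglutinin, *AGA1*, was not called at EX (log2 difference 0.38) or D6 (0.18).

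*ASG7* (1777860_at), an a-specific gene whose product dampens signalling after mating, was called at neither phase. It lay between the 7.8th and 19.8th percentile on the control arrays and between the 8th and 10.2nd on the L-UBB+1 arrays. Levels this near the bottom may understate a fall. Its levels were 7.34 and 7.01 in control EX, 6.57 and 6.75 in control D6, 6.54 and 6.58 in L-UBB+1 EX, and 6.59 and 6.72 in L-UBB+1 D6. The 2 control EX arrays were above the other 6 arrays, which overlapped between the strains. The log2 difference between the strains was -0.61 at EX (95% interval -0.92 to -0.30, adjusted p = 0.00389, limma), which was under the size for a call. At D6 it was -0.005 (95% interval -0.32 to 0.31, adjusted p = 0.975).

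**Figure D3:**
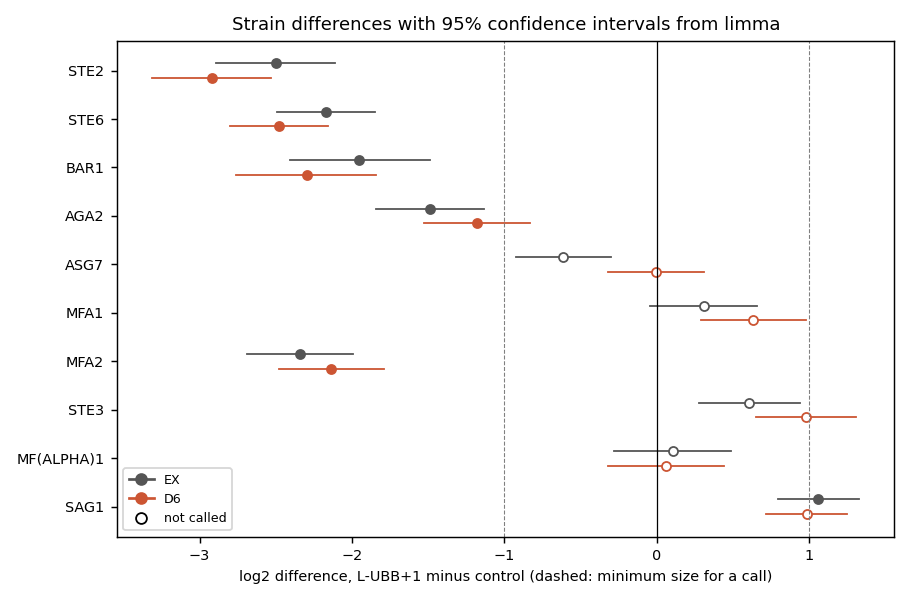
Log2 difference of each gene between the L-UBB+1 and control arrays at EX (grey) and D6 (red), with 95% confidence intervals from limma (bars) and open points for genes not called. The intervals of *STE2*, *STE6*, *BAR1* and *MFA2* lie wholly below -1 at both phases, and those of *MF(ALPHA)1* include 0.

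Among the alpha-specific genes, *SAG1* (1773284_at) encodes α-agglutinin, the surface protein that the a-agglutinin of the partner binds. Its levels were 7.27 and 7.07 in control EX, 7.31 and 7.14 in control D6, 8.20 and 8.26 in L-UBB+1 EX, and 8.29 and 8.14 in L-UBB+1 D6. The L-UBB+1 arrays were all above the control arrays, and the phases overlapped within each strain. *SAG1* was 2.09-fold higher at EX (log2 difference 1.06, standard error 0.11, adjusted p = 9.43e-05, limma, n = 2 arrays per group). At D6 the log2 difference of 0.99 (95% interval 0.72 to 1.25, adjusted p = 0.000132) was just under the size for a call. The call at EX was lost without control EX replicate 2 (log2 difference 0.965), without L-UBB+1 EX replicate 2 (adjusted p = 0.001), and when L-UBB+1 EX 2 and D6 1 were both left out (adjusted p = 0.00193), or EX 1 and D6 2 were (0.00162). With quantile normalization *SAG1* was called at D6 too (log2 difference 1.02), as it was without L-UBB+1 D6 replicate 2 (1.06) or the control D6 array of replicate 1 (1.07). It was also called there with no minimum fold, and by the methods' t-test after Benjamini-Hochberg adjustment at a p under 0.05 (adjusted p = 0.037).

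*STE3* (1772134_at), the receptor for a-factor, was measured at 6.82 and 6.81 in control EX, 6.29 and 6.72 in control D6, 7.41 and 7.43 in L-UBB+1 EX, and 7.48 and 7.50 in L-UBB+1 D6. All L-UBB+1 arrays lay above all control arrays. The log2 difference was 0.61 at EX (95% interval 0.28 to 0.94, adjusted p = 0.00534, limma) and 0.98 at D6 (0.65 to 1.31, adjusted p = 0.000424), and neither was called. It was called at D6 with quantile normalization (log2 difference 1.01), without control D6 replicate 2 (1.20) and with no minimum fold. The methods' t-test after Benjamini-Hochberg adjustment, at a p under 0.05, called it at EX (adjusted p = 0.0131) and not at D6. *MF(ALPHA)1* (1775057_at), the main α-factor gene, had levels of 6.10 and 6.32 in control EX, 5.90 and 6.29 in control D6, 6.17 and 6.47 in L-UBB+1 EX, and 6.13 and 6.18 in L-UBB+1 D6. All 4 groups overlapped in a narrow range near the bottom of the arrays. The log2 difference was 0.11 at EX (95% interval -0.28 to 0.49, adjusted p = 0.573, limma) and 0.06 at D6 (-0.32 to 0.44, adjusted p = 0.748).

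In the comparison of D6 with EX, none of the 10 genes was called in either strain by limma (0.00% of all genes in each). In the control strain 3 of the 10 had an unadjusted p under 0.05 (27.2% of all genes). These were *STE2* (log2 difference 0.45, adjusted p = 0.135), *STE6* (0.35, adjusted p = 0.151) and *ASG7* (-0.51, adjusted p = 0.0667). In the L-UBB+1 strain 0 of the 10 had one (0.184% of all genes), and their log2 differences ran from -0.16 to 0.22. The 95% intervals for the phases of L-UBB+1 were wide enough to hold changes such as 0.43 for *STE2* and 0.56 for *MFA1*. The fit treats these arrays as independent, though EX 1 was closest to D6 2 and EX 2 to D6 1. The p-values and intervals of this comparison are therefore approximate. A change of the strain effect from EX to D6 was called for none of the 10 genes (0.00% of all genes). *ASG7* alone had an unadjusted p under 0.05 (log2 difference 0.61, adjusted p = 0.275, limma), where 15.9% of all genes had one. For *STE2*, whose fall was 2.50 at EX and 2.92 at D6, the test of that difference gave -0.42 (95% interval -0.97 to 0.13, adjusted p = 0.412).

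Over the 8 arrays, the called a-specific genes ran closely together. Pearson's r was 0.999 for *STE2* with *STE6*, 0.994 for *STE2* with *BAR1* and 0.992 for *AGA2* with *MFA2*. *MFA1* ran the other way, with r = -0.807 with *MFA2*, and r = 0.946 with the alpha-specific *STE3*. *ASG7* and *MF(ALPHA)1* gave lower values, such as 0.496 for *ASG7* with *STE2* and -0.266 for *MF(ALPHA)1* with *STE2*. The arrays form 2 clusters by strain label, so these values describe mostly the step between the clusters. The gene most like each member was *YIF1* of Golgi vesicle transport for *STE2* (r = 0.9994), the ribonucleotide reductase gene *RNR1* for *STE6* (0.9992), the translocon gene *SEC61* for *BAR1* (0.9977), *VPS55* for *AGA2* (0.9981) and the Rab GTPase gene *YPT31* for *MFA2* (0.9995). For *SAG1* it was *CRF1* (0.9981), for *STE3* *COA3* (0.9978), for *MFA1* *YBP1* (0.9822), for *ASG7* *PTK2* (0.9711) and for *MF(ALPHA)1* *YHR212W-A* (0.8199).

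At the mating-type loci, *HMRA1* and *HMRA2* were higher in L-UBB+1, while *HMLALPHA1* hardly varied. *HMRA1*, which encodes the a1 repressor that acts with α2 in diploids, had levels of 9.34 and 9.02 in control EX, 8.53 and 8.67 in control D6, 10.04 and 10.13 in L-UBB+1 EX, and 10.18 and 9.91 in L-UBB+1 D6. Every L-UBB+1 array lay above every control array. *HMRA1* rose 2.73-fold at D6 (adjusted p = 6.28e-05, limma) and was under the size for a call at EX (log2 difference 0.90, adjusted p = 0.000802). The neighbouring *HMRA2* rose 2.05-fold at EX and 2.99-fold at D6 (adjusted p = 0.000406 and 4.28e-05). Its probe set is one that the array's design marks as matching several transcripts, as is that of *HMLALPHA1*. *HMLALPHA1* stayed between 6.02 and 6.07 on all 8 arrays, and *MF(ALPHA)2* had log2 differences of 0.48 and 0.54, neither called. *MATALPHA1*, *MATALPHA2* and *HMLALPHA2* had no probe set of their own name among those used.

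Haploid-specific genes, which both mating types express and diploids repress, gave 2 of 9 called lower at EX (17.1% of all genes) and 3 at D6 (18.5%), with 0 called higher and medians of -0.84 and -0.96. *HO*, the mating-type switching endonuclease gene, was 3.87-fold lower at EX and 4.03-fold lower at D6 (adjusted p = 3.67e-06 and 3.01e-06, limma). The MAP kinase gene *FUS3* fell by 1.06 and 1.19 on the log2 scale, and *GPA1*, for the Gα subunit that both receptors couple to, fell by 1.14 at D6 and was not called at EX (log2 difference -0.87). The 20 pheromone signalling genes held 6 rises and 1 fall at EX and 5 rises and 3 falls at D6, with medians of -0.02 and -0.09. The kinase genes *STE7* and *STE11* of the MAP kinase cascade rose 3.51-fold and 2.95-fold at EX, and the phosphatase gene *MSG5*, which acts on Fus3, rose 3.15-fold. This list shares *FUS3*, *GPA1*, *STE12* and other genes with the lists of haploid-specific genes and regulators. It held rises and falls within 1 pathway, at a share of calls near that of all genes (34.3% at EX and 36.4% at D6).

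The 12 regulators of cell type held 4 rises and 1 fall at EX and 3 rises and 1 fall at D6, with medians of 0.62 and 0.46. Of all genes, 34.3% were called at EX and 36.4% at D6, so that 5 and 4 of 12 lay near the background. *SIR1*, which helps to start silencing at HML and HMR, rose 3.39-fold at EX and 3.26-fold at D6. *SIR4* rose 2.77-fold and 2.21-fold, and *DIG2*, an inhibitor of Ste12, 2.21-fold and 2.55-fold. *ASH1*, the daughter cell repressor of *HO*, fell by 1.89 and 2.12. *STE12* itself was 2.55-fold higher at EX (adjusted p = 0.000516, limma) and was not called at D6 (log2 difference 0.91, adjusted p = 0.00382). *MCM1*, whose product acts at both a-specific and alpha-specific genes, was called at neither phase (log2 differences 0.73 and 0.60).

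Among genes for maturing the pheromones, those called were lower, while some not called were higher. Of 10, 3 were called lower at EX (17.1% of all genes) and 4 at D6 (18.5%), with 0 called higher, and the medians were -0.56 and -0.71. *RCE1*, which trims the farnesylated end of a-factor, fell by 1.45 at EX and 1.32 at D6, and *STE14*, which methylates it, by 1.31 and 1.15. *RAM2*, a subunit of the farnesyltransferase, fell by 1.01 at EX and was not called at D6 (log2 difference -0.855). *STE23*, a protease that trims the other end of a-factor, fell by 1.05 at D6 and was just under the size for a call at EX (log2 difference -0.97). *AXL1* of the same list went the other way, by 0.87 at EX (adjusted p = 0.000119, limma) and 0.81 at D6 (0.000174), under the size for a call. The 20 genes that pheromone induces held 4 rises and 0 falls at EX and 4 rises and 1 fall at D6, with medians of 0.34 and 0.27. Rises were called for 17.2% and 17.9% of all genes, so 4 of 20 lay near the background. *PRM3* and *FUS2*, which act in nuclear fusion and cell fusion, rose 3.21-fold and 2.84-fold at EX, and *PRM4* 2.81-fold. *GIC2*, an effector of the polarity GTPase Cdc42, was the gene that fell at D6 (by 1.42) and was not called at EX (log2 difference -0.81).

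**Figure D4:**
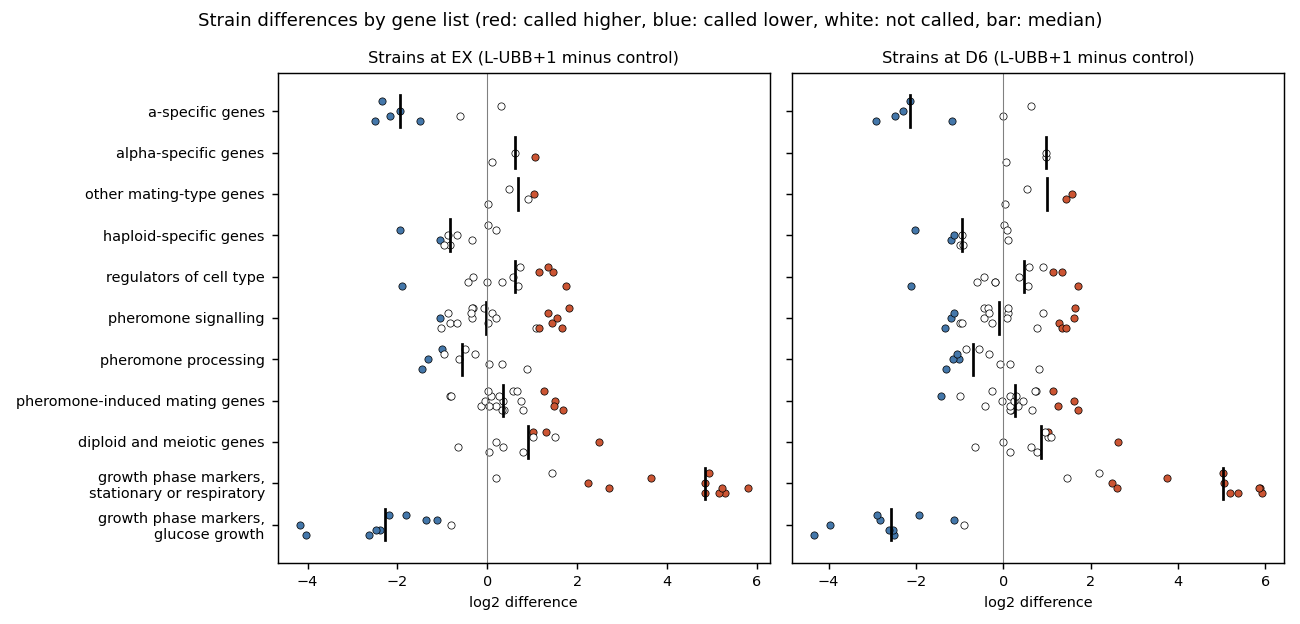
Log2 difference between the L-UBB+1 and control arrays (horizontal axis) of every measured gene in each list, at EX (left) and D6 (right), coloured by call, with the list's median as a bar. The a-specific genes have medians of -1.95 and -2.14, the alpha-specific genes of 0.61 and 0.98, and the growth phase markers lie farthest from 0.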

How the data were processed

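Total RNA of 8 cultures was labelled and hybridized to Affymetrix Yeast Genome 2.0 arrays. The deposited values are log2 expression levels per probe set, which the authors computed in R and PIANO (R 3.2.3 in the submitters' processing notes). The sources used here do not give how probes were summarized or arrays normalized. The array medians lay between 8.338 and 8.41, and the values were used as deposited. Arrays carry no depth, and their number (2 per group) limits the precision.

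Of 5705 probe sets, 5489 were tied to 1 gene by the platform annotation, with 12 symbols updated by gene ID, and 216 were left out. Each gene kept its brightest probe set on average, which left 5444 genes. A model of 4 group means was fitted in limma 3.58.1 (R 4.3.3), with 4 residual and 3.26 prior degrees of freedom and Benjamini-Hochberg adjustment over all genes. Calls needed an adjusted p under 0.001 and a log2 difference of at least 1. The fit was tested on simulated data. Members and lists were chosen with earlier results of these data known. Named were all members, fixed loci, some of the growth phase markers, the 3 largest calls of a list, and the most alike genes by Pearson's r. Sequences were not used here. Alternatives covered normalization, probe sets, dim genes, arrays in the fit, prior, replicate block, thresholds, the methods' t-test and each array left out.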

Additional observations from a re-analysis of the deposited data

Results flagged for a closer look

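*ASG7* and *STE3* moved in opposite directions between the phases of the 2 strains on every array. *ASG7* was lower at D6 than at EX in the control strain and higher in the L-UBB+1 strain, so that the signed strain effect moved by 0.61 on the log2 scale, from -0.61 at EX to -0.005 at D6 (adjusted p = 0.275 from the interaction test in limma, n = 2 arrays per group). For *STE3* it moved by 0.37, from 0.61 to 0.98 (adjusted p = 0.392). Neither passed the test of the difference. In L-UBB+1 the rise was 0.095 for *ASG7* (95% interval -0.22 to 0.41) and 0.07 for *STE3* (-0.26 to 0.40), so neither rise can be told from 0.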

How the results depend on the processing

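No member with an unadjusted p under 0.05 changed direction under any alternative. Of 226 member values under the alternatives for the strains at EX, 215 kept their side of the threshold, and of 226 at D6, 208 did. The threshold was that of each setting, and some were looser than that of the main fit. Leaving out each array in turn gave 4 to 6 members called at EX (6 with all arrays) and 5 at D6 each time (5 with all arrays), though not the same 5: *AGA2* gave way to *SAG1* without L-UBB+1 D6 replicate 2 or the control D6 array of replicate 1, and to *STE3* without control D6 replicate 2. Leaving out both L-UBB+1 arrays EX 1 and D6 2, which was added once the data had been seen, gave 3 at D6. The methods' t-test at an unadjusted p under 0.05 called 1 member between the phases of the control strain and 2 in L-UBB+1, where limma called 0. It called 3493 and 3293 of all genes at EX and D6 (2954 at EX after adjustment) and 631 and 120 between the phases, and limma at an adjusted p under 0.05 with the same fold called 53 between the phases of the control strain. With the dimmest 20% of genes left out, *BAR1*, *ASG7*, *STE3* and *MF(ALPHA)1* were not tested. The replicate numbers did not pair the arrays: correlations of replicate deviations ran from -0.855 to 0.364. With the replicate block, 6 members were called at EX, 5 at D6 and 0 in the other comparisons. A crossed replicate block, chosen after seeing the data, gave 6, 5 and 0. A promoter motif search was not run. With 2 arrays per group, a small change can escape a call.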

Other observations

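Of 10 genes of meiosis and diploid life, 3 were called higher in L-UBB+1 at EX (17.2% of all genes) and 2 at D6 (17.9%), with none called lower. The 2 of 10 at D6 lay near the background. The list's median log2 differences were 0.90 and 0.85. Among the genes not called, *NDT80* hardly changed (log2 differences 0.03 and 0.16) and *SPO11* was lower (-0.66 at each phase). *IME1*, the master regulator of meiosis, had levels between 6.46 and 6.72 on the control arrays and between 8.96 and 9.42 on the L-UBB+1 arrays, a rise of 5.57-fold at EX and 6.15-fold at D6 (adjusted p = 1.93e-05 and 1.42e-05, limma). *IME4*, an RNA methyltransferase that acts upstream of *IME1*, was 2.02-fold higher at each phase, and the kinase gene *SPS1* was called at EX (log2 difference 1.30) and not at D6 (0.945). *IME1*, *IME4* and *SPS1* moved with the same arrays as the growth phase markers, whose part in the result was not tested.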
